A study of Mus musculus with 2 samples.

Results

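Mast cells of the healing dorsal wound were picked out of 2 single-cell RNA libraries by their granule protease transcripts, which gave 202 of 11443 filtered cells in the library WT_LW and 446 of 13206 in TLR9agonist_LW, 648 of 24649 cells in all. A cell was kept when it held at least 10 UMIs (unique molecular identifiers, each standing for 1 captured transcript) of Cma1, Tpsb2 and Mcpt4 together and at least 1 of Cpa3, with fewer than 20 UMIs of the collagen genes Col1a1 and Col1a2 and fewer than 2 of Cd3d, Cd3e and Cd3g. To be counted at all a cell needed 500 UMIs and 300 genes or more, with mitochondrial transcripts making up 15% or less. The members were thus chosen by these protease, collagen and Cd3 counts, and what the counts show is not a finding. Both libraries came from wild-type C57/BL6 mice (C57BL/6J in the study's methods) with a circular wound 1.8 cm across on the back. The wounds of WT_LW were sprayed with PBS and those of TLR9agonist_LW with ODN2395, a synthetic CpG oligonucleotide that activates Toll-like receptor 9, on days 0, 3 and 6, and the wound skin was collected 2 days after the scab came off. The study's methods also name PBS for WT_LW, whereas its figure legend on healing speed names a control oligonucleotide for that group. Each library joined tissue of several male mice by the study's methods, and there was 1 library per group. Treatment, mice and preparation can therefore not be told apart, cells of 1 library are not replicates, and no test between the groups was possible. Every interval below is a 95% interval that covers counting error only.

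Mast cells are long-lived, granule-filled immune cells of the connective tissue that depend on the receptor Kit. Their granules hold chymases, tryptases, carboxypeptidase A3, histamine and serotonin, bound to the heparin chains of serglycin. Antigen bound to IgE on the receptor FcεRI, or basic peptides bound to Mrgprb2, make them release the granules, and cytokines, chemokines and lipid mediators are made in addition. In mouse skin most mast cells are of the connective tissue type with Cma1, Mcpt4, Tpsb2 and Cpa3, whereas Mcpt1 and Mcpt2 are the proteases of the mucosal type.

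Cells near the gate were few. Among cells that passed the collagen and Cd3 limits, 1314 cells of WT_LW and 924 of TLR9agonist_LW had 1 to 4 protease UMIs, 33 and 22 had 5 to 9, 20 and 29 had 10 to 14, 14 and 37 had 15 to 19, and 97 and 106 had 100 or more. Just outside the gate, at 5 to 9 UMIs, Hdc (histidine decarboxylase, which makes histamine) was seen in 21.2% of the WT_LW cells and 72.7% of the TLR9agonist_LW cells. Just inside it, at 10 to 14, the shares were 45% and 86.2%. Other markers were seen less often. At 10 to 14 UMIs Kit was seen in 30% and 24.1%, and the FcεRI chains Fcer1a in 10% and 20.7% and Ms4a2 in 15% and 6.9%. At 5 to 9 UMIs the shares were 12.1% and 9.09%, 9.09% and 31.8%, and 3.03% and 13.6%. Cells with 0 protease UMIs had Kit in 11.5% and 7.85% and Hdc in 5.61% and 10.8%. Of the cells with 10 or more protease UMIs, 4 of 233 and 6 of 532 lacked Cpa3, and the collagen and Cd3 limits then took out 27 and 80. 

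**Figure D1:**
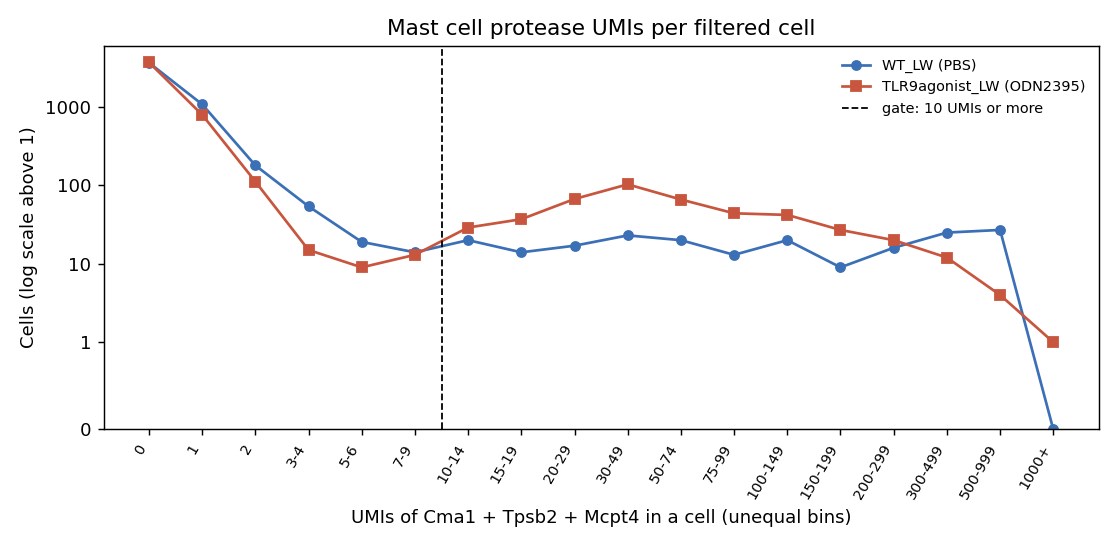
Number of filtered cells (vertical axis, logarithmic above 1) by their UMIs of Cma1, Tpsb2 and Mcpt4 (horizontal axis, unequal bins), for cells under the collagen and Cd3 limits whether or not they held Cpa3. Circles are WT_LW, squares TLR9agonist_LW, and the dashed line is the gate. TLR9agonist_LW dips to 9 cells at 5 to 6 UMIs and peaks again with 103 cells at 30 to 49, while WT_LW stays between 9 and 27 cells per bin from 5 to 999 UMIs.

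Markers that the gate did not use were those of mast cells. CPM here is the UMIs of a gene per 1000000 UMIs of the members of a library. Fcer1a, the IgE-binding chain of FcεRI, stood at 881 and 392 CPM in the members of WT_LW and TLR9agonist_LW and at 1.69 and 1.19 CPM in all other filtered cells. Ms4a2, its beta chain, stood at 373 and 293 CPM against 0.93 and 0.94, and Mrgprb2 at 237 and 222 CPM against 0.554 and 0.462. All 12 mast cell markers outside the gate had UMIs in both libraries and summed to 8117 and 9666 CPM, against 155 and 155 CPM in all other cells. In cells thinned to 1500 UMIs, so that depth is equal, Gata2, a transcription factor of the lineage, was seen in 47.9% of 144 members and 47.4% of 283, against 0.495% and 0.397% of the T cells of the same libraries. T cells (3725 and 3818 cells with at least 2 UMIs of Cd3d, Cd3e and Cd3g, median 4430.0 and 4703 UMIs) should lack the mast cell genes and serve here as the level of free RNA, which other cells leave in the suspension. Thinning does not equalise the part of free RNA in a cell, so the deeper T cells may give too low a level for the members. For genes that T cells make themselves, their share is not a level of free RNA. The 7 genes of the basophil list summed to 2189 and 3349 CPM in the members, against 461 and 376 CPM in all other cells. Most of this was Basp1 (1785 and 3057 CPM), which is not specific to basophils, so the sum is not a measure of basophil RNA. The basophil proteases Mcpt8 and Prss34 had 54 and 16 UMIs and 1 and 2 UMIs.

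The members were shallow cells. Their median was 2297 UMIs and 1045 genes in WT_LW and 1819.5 UMIs and 867 genes in TLR9agonist_LW, against 5520 and 6310.5 UMIs in all filtered cells, and they summed to 772099 and 1201019 UMIs. Their mitochondrial share had a median of 2.74% and 1.56%. A few cells were much deeper: 11 and 12 members had 10000 UMIs or more and held 23.7% and 18.3% of the members' UMIs. In those deep cells of TLR9agonist_LW, Kit stood at 36.3 CPM and Srgn at 540.2 CPM. This was far below the 594 and 2626 CPM of members of that library with 1500 to 2999 UMIs. In the deep cells of WT_LW, Kit stood at 535.6 CPM and Srgn at 3558 CPM, against 1124 and 3460 CPM in its members with 1500 to 2999 UMIs. The deep cells thus differed between the libraries, and the CPM summed over all members includes them. Values without the deep cells, or by depth, are therefore given for some genes and lists below. No cell barcode was shared by members of both libraries, while 39 were shared among all filtered cells.

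RNA of other cell classes was also present and was higher in TLR9agonist_LW. The 7 neutrophil markers summed to 267 CPM in the members of WT_LW and 5331 CPM in those of TLR9agonist_LW, beside 536 and 5563 CPM in all other cells. Most of it was S100a8 (142 and 2549 CPM) and S100a9 (117 and 2702 CPM), and the neutrophil receptor genes Csf3r and Cxcr2 had 0 and 6 UMIs and 1 and 1 UMIs. In single members the sum ran from 0 to 49 UMIs (median 0) in WT_LW and from 0 to 1022 (median 3) in TLR9agonist_LW. The 9 keratinocyte markers summed to 3329.9 and 7525 CPM and the 7 fibroblast markers to 2348 and 4413 CPM. At least 20 UMIs of such markers of 8 other classes were found in 69 members of WT_LW and 248 of TLR9agonist_LW. The part of this RNA in the differences given here was not tested. The macrophage and dendritic cell markers went the other way, at 2348 and 2145 CPM, and T and NK, endothelial, pericyte and Schwann cell markers stayed under 500 CPM in each library. The fibroblast markers include Col1a1 and Col1a2, and the T and NK markers include Cd3d, Cd3e and Cd3g. The gate capped these genes in each member, so both sums were held down by the selection and are a description.

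Promoters of several genes that stand highest in the members hold the letters GATAA, which GATA factors such as Gata2 bind. The windows are the 250 bases before each gene's start in RefSeq, build GRCm38.p6, written 5′ to 3′ on the gene's strand, and they are shown for 5 genes with the letters and, for contrast, for Hdc and Ctsg, which mark the cells or differ between the libraries as well and lack them. Capitals mark GATAA on the printed strand or TTATC, the same letters on the other strand:
Mcpt1, chr14:56017714-56017963, plus strand: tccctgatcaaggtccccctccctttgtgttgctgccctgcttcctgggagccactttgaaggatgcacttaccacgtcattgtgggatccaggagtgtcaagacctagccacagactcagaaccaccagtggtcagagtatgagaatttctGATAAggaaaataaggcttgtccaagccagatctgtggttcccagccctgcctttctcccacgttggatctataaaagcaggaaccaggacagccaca
Mcpt4, chr14:56062311-56062560, minus strand: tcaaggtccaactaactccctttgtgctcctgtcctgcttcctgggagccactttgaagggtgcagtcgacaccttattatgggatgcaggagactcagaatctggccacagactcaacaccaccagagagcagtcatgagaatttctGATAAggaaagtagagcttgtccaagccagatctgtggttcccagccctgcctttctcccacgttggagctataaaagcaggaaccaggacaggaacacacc
Cma1, chr14:55944676-55944925, minus strand: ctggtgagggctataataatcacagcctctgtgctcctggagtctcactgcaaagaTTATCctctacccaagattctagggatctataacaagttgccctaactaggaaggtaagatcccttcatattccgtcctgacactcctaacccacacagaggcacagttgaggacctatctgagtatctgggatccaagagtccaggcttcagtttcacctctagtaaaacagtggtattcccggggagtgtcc
Cpa3, chr3:20242182-20242431, minus strand: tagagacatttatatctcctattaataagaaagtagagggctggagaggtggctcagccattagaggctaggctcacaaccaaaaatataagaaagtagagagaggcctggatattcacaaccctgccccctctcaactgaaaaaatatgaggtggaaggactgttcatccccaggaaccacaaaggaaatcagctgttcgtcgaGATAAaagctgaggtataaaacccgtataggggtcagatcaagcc
Fcer1a, chr1:173227230-173227479, minus strand: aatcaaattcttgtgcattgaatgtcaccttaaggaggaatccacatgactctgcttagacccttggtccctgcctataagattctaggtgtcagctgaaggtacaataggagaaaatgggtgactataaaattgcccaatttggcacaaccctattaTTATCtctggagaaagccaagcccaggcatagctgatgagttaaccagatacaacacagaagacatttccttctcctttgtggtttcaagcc
Hdc, chr2:126618679-126618928, minus strand: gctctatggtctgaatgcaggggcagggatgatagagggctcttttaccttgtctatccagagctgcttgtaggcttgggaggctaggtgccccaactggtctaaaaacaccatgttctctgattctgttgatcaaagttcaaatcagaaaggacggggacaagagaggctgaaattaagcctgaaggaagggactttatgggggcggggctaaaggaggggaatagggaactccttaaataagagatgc
Ctsg, chr14:56102575-56102824, minus strand: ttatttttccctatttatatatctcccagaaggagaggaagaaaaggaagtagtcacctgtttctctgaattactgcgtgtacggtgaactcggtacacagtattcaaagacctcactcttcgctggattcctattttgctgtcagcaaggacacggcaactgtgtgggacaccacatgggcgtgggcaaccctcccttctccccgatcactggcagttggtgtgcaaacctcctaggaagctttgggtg
The window of Kit also lacked the letters. Of the 20 genes with the highest ratio of members to other cells, 15 had a promoter window, and 12 of these held GATAA on either strand. Cma1, Mcpt4 and Cpa3 are among these 12 and are high in the members because the gate used them, so this share is a description. Among all 27025 genes with a window the share was 25.5%, and among the 250 genes with a window that stood at 2 or more times the level of other cells it was 27.2%. A match is a description of the letters only. The windows of Mcpt1 and Mcpt4 shared 207 of 250 bases (82.8%) in their best alignment, with 1 common run of 53 bases, while their log2 ratios between the libraries were -7.07 and -0.44.

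Mast cells took a larger part of the TLR9agonist_LW library. The share was 1.77% (1.53 to 2.02%, exact Clopper-Pearson) of the filtered cells of WT_LW and 3.38% (3.08 to 3.70%) of those of TLR9agonist_LW, a ratio of 1.91 (1.62 to 2.27). Among cells with a UMI of the leukocyte gene Ptprc the shares were 1.37% (96 of 7030) and 2.51% (148 of 5885). The ratio was 1.29 (1.03 to 1.62) once members with 20 or more UMIs of other classes were left out, which left 133 and 198 cells. The part of dissociation and of cell capture in these shares was not tested.

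The gate proteases themselves stood lower in TLR9agonist_LW, as a description. Cma1, a protease of the chymase family, had 24637 and 12489 CPM in WT_LW and TLR9agonist_LW, and Mcpt4, the main chymase of mouse skin, 19465 and 14314 CPM. The tryptase Tpsb2 had 6203 and 4139 CPM and the carboxypeptidase Cpa3 10686 and 5415 CPM. The sum of the 3 proteases per cell had a median of 89.5 UMIs in WT_LW (quartiles 31 and 306) and 48 in TLR9agonist_LW (27 and 94). As a percentage of the cell's UMIs the medians were 4.04% and 2.88%. Cma1 and Mcpt4 made up most of the sum in both libraries, and Mcpt4 took a median of 40.3% of it in WT_LW and 46.5% in TLR9agonist_LW.

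The background for each list is the count over all genes. Of 4248 genes with at least 50 UMIs in the members, 489 (11.5%) were at least 2-fold higher in TLR9agonist_LW than in WT_LW relative to the median gene, and 270 (6.36%) at least 2-fold lower. The median gene had a log2 ratio of -0.06. Log2 ratios are printed without subtracting it, and a gene of a list was counted as higher or lower when it lay at least 2-fold from it. Of the 333 genes whose level was at least 2 times that of all other cells in both libraries, 65 (19.5%) were higher and 22 (6.61%) lower. None of the 24 listed ribosomal protein genes passed 2-fold, and their median log2 ratio was -0.28.

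Outside the gate, the granule proteases fell into a group that was close between libraries and a group that was far lower in TLR9agonist_LW. Of the 16 listed granule genes, 11 had at least 50 UMIs, of which 1 was higher and 4 were lower, with a median log2 ratio of -0.63. The tryptase Tpsab1 had 1681 CPM (1591 to 1775) in WT_LW and 1251 CPM (1189 to 1316) in TLR9agonist_LW (log2 ratio -0.43, -0.53 to -0.32), and granzyme B, Gzmb, 1127 and 1027 CPM. Srgn, serglycin, to which the granule contents bind, was at 4143 and 2139 CPM (log2 ratio -0.95). Of the 9 connective tissue genes outside the gate, 2 were higher and 1 lower (median log2 ratio 0.32, or 0.02 over 8 genes without the members that held RNA of other classes), and of 5 mucosal genes with at least 50 UMIs 1 was higher (Spp1, 18 and 130 UMIs) and 2 were lower. The mucosal-type proteases were the widest apart of all 1230 genes with at least 200 UMIs and at least 10 in each library. Mcpt1 had 2072 and 24 UMIs, or 2684 CPM (2569 to 2802) in WT_LW and 19.98 CPM (12.8 to 29.7) in TLR9agonist_LW (log2 ratio -7.07, -7.71 to -6.49). Mcpt2 had 2374 and 47 UMIs, or 3075 and 39.1 CPM (log2 ratio -6.30, -6.74 to -5.88). Ctsg, cathepsin G, had 324 and 83.3 CPM (log2 ratio -1.96, -2.31 to -1.62), and Mcpt8 69.9 and 13.3 CPM, with 38.9% of its WT_LW UMIs in 1 cell. Mcpt9 had 16 and 0 UMIs, all in 1 cell. Of the 7 genes of the basophil list, Mcpt8 among them, 5 had at least 50 UMIs, 1 higher and 1 lower.

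The Mcpt1 and Mcpt2 transcripts sat in few cells. In WT_LW, 19 of 202 members (9.41%, 5.76 to 14.3%) held 10 or more UMIs of the pair, and these held 99.2% of the Mcpt1 and 97.9% of the Mcpt2 UMIs. In TLR9agonist_LW it was 1 of 446 (0.224%, 0.00568 to 1.24%). This limit of 10 UMIs was chosen after the values were seen. A single WT_LW cell of 35291 UMIs held 1474 of the 2072 Mcpt1 UMIs and 1196 of the 2374 Mcpt2 UMIs, and the next highest counts in a cell were 411 and 400. The CPM of the pair thus rests on very few cells. Without the members of 10000 UMIs or more the log2 ratios were -2.90 for Mcpt1 and -3.38 for Mcpt2. In members thinned to 1500 UMIs, 32 of 144 (22.2%, 15.7 to 29.9%) of WT_LW and 6 of 283 (2.12%, 0.782 to 4.56%) of TLR9agonist_LW still had a UMI of either gene, beside 0.22% of the T cells of WT_LW for Mcpt1 and 0 of 3782 in TLR9agonist_LW, which allows a share of up to 0.0793%.

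The 19 WT_LW cells were gated on the connective tissue proteases like all members, so those levels are a description. Cma1 stood at 25242 CPM in them and 24410 CPM in the other 183 members, and Mcpt4 at 16964 and 20402 CPM. The cell with most of the Mcpt1 and Mcpt2 UMIs stood apart from this, with 2 UMIs of Cma1, 0 of Tpsb2, 155 of Mcpt4 and 32 of Cpa3. All 19 had a Kit UMI and 18 a UMI of Fcer1a, Ms4a2 and Tpsab1, each. Gzmb was at 2024 and 791 CPM, Ctsg at 470.4 and 269 CPM, and Mrgprb2 at 109 and 285 CPM. Mki67 and Top2a, genes of dividing cells, were seen in 8 of the 19 and 20 of the 183 cells, each. Of the keratinocyte genes, Krt17 was at 1445 and 65.9 CPM and Krtdap at 1364 and 125 CPM, seen in 3 and 5 of the 19 cells. Krt1 (276 and 531 CPM) and Krt10 (456 and 516 CPM) went the other way. The 19 were deeper, with a median of 8048 against 2093 UMIs. The part of depth and of RNA of other classes in the values of the 19 cells was not tested. No window of 50 bases of the Mcpt1 or Mcpt2 transcript in GENCODE vM21 occurs in another of 12 granule protease transcripts, while 5.48% of those of Mcpt4 and 18.8% of those of Mcpt9 occur in Cma2 or another of them, so counts of Mcpt9 and Cma2 are uncertain.

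**Figure D2:**
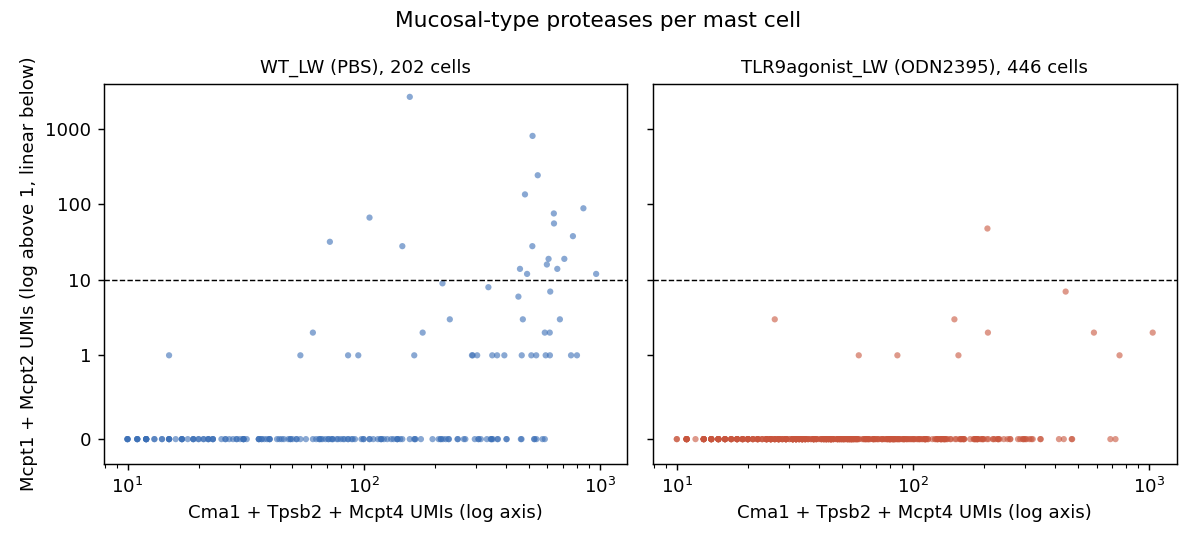
UMIs of Mcpt1 plus Mcpt2 (vertical axis, logarithmic above 1) against UMIs of Cma1, Tpsb2 and Mcpt4 (horizontal axis, logarithmic) in each mast cell, WT_LW left and TLR9agonist_LW right. The dashed line marks 10 UMIs, reached by 19 of 202 cells in WT_LW and 1 of 446 in TLR9agonist_LW.

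Hdc was higher in TLR9agonist_LW, and the other genes of the granule amines leaned the same way by less than 2-fold. Hdc had 1917 CPM (1820.4 to 2017) in WT_LW and 4246 CPM (4129.8 to 4364) in TLR9agonist_LW (log2 ratio 1.15, 1.06 to 1.23), and at 1500 UMIs it was seen in 84.7% and 92.2% of the members. Of the cell's UMIs, Hdc took a median of 0.142% in WT_LW (quartiles 0.0678 and 0.311%) and 0.486% in TLR9agonist_LW (0.226 and 0.772%). Hdc was higher at each depth below 10000 UMIs, with 2285 and 6206 CPM in members under 1500 UMIs and 1983 and 4222 CPM in those of 3000 to under 10000. In the few members of 10000 UMIs or more the order was opposite, at 1279 and 595 CPM. Tph1, which makes the serotonin precursor, had 373 and 669 CPM (log2 ratio 0.84, 0.65 to 1.04), Ddc, the decarboxylase of the next step, 57 and 91.6 CPM, and the vesicle transporter Slc18a2 218 and 272 CPM (log2 ratio 0.32, 0.05 to 0.60). In all other cells the log2 ratios of Tph1 and Slc18a2 were 1.38 and 0.38, so their rise was not particular to the members. Hdc, without thinning, was seen in 5.61% and 10.8% of the cells with 0 protease UMIs under the collagen and Cd3 limits. A rise of Hdc was thus not particular to the members either. The part of a rise across the library in the Hdc values was not tested. Hnmt, which breaks histamine down, had no UMI in either library. Of the 19 genes of amines, heparin and storage, 13 had at least 50 UMIs, of which 4 were higher and 1 lower (median log2 ratio 0.70).

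Enzymes that build heparin moved apart. Ext1, which lengthens the heparan chain, had 131 and 399.7 CPM (log2 ratio 1.61, 1.30 to 1.94), and the sulfotransferase Hs3st1 253 and 568 CPM (log2 ratio 1.17, 0.94 to 1.41). The chondroitin sulfotransferase Chst11 had 18.1 and 104 CPM (log2 ratio 2.52, 1.72 to 3.43). Ndst2, the sulfotransferase that mast cells need for heparin, had 69 and 10 UMIs, or 89.4 and 8.33 CPM (log2 ratio -3.42, -4.55 to -2.46), and was the 1 listed gene of this group that was lower by 2-fold. At 1500 UMIs Ndst2 was seen in 14.6% and 0.707% of the members and in 0.577% and 0.397% of T cells. In all other cells its log2 ratio was -1.04.

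Among surface receptors, Fcer1a was lower and the shared beta chain of the IL-3, IL-5 and GM-CSF receptors was higher in TLR9agonist_LW. Fcer1a had 881 CPM (816 to 949) in WT_LW and 392 CPM (358 to 429) in TLR9agonist_LW (log2 ratio -1.17, -1.34 to -0.996), Ms4a2 a log2 ratio of -0.35 (-0.58 to -0.12), and the gamma chain Fcer1g 2273 and 1460.4 CPM (log2 ratio -0.64). Kit had 830.2 CPM (767 to 897) in WT_LW and 459.6 CPM (422 to 499.6) in TLR9agonist_LW (log2 ratio -0.85, -1.02 to -0.69), and at 1500 UMIs it was seen in 68.8% (60.5 to 76.2%) and 49.8% (43.9 to 55.8%) of the members. Of these, Fcer1a alone passed 2-fold, and it did not do so with equal weight per cell (log2 ratio -0.67). In members under 1500 UMIs it was at 365 and 507 CPM, the opposite order. Csf2rb had 459.8 CPM (413 to 510.2) in WT_LW and 1132 CPM (1073 to 1194) in TLR9agonist_LW (log2 ratio 1.30, 1.13 to 1.47), and its mouse-specific copy Csf2rb2 329 CPM (289.8 to 372) in WT_LW and 1257 CPM (1195 to 1322) in TLR9agonist_LW (log2 ratio 1.93, 1.74 to 2.13). Both copies are close relatives, so reads could be split between them. In all other cells the log2 ratios were -0.38 and -0.13.

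The receptors for IL-33 and for basic peptides were close. Il1rl1, the IL-33 receptor, had 592 and 649 CPM (log2 ratio 0.13, -0.03 to 0.30), and Mrgprb2 237 and 222 CPM (log2 ratio -0.09, -0.37 to 0.19). Its relative Mrgprb1 had 743 and 1242 CPM (log2 ratio 0.74, 0.60 to 0.88), and the adenosine receptor Adora3 205 and 269.8 CPM (log2 ratio 0.40, 0.12 to 0.68). Of the 36 listed surface receptors, 21 had at least 50 UMIs, of which 4 were higher (Csf2rb, Csf2rb2 and Tnfrsf9 among them) and 1 was lower (Fcer1a), with a median log2 ratio of -0.09. Tnfrsf9 had 7 and 96 UMIs.

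Fyn, Lyn and Syk, kinases below FcεRI and Kit, were higher. Of the 24 listed genes, 19 had at least 50 UMIs, of which 6 were higher and 1 was lower (median log2 ratio 0.24). Without the members that held 20 or more UMIs of other classes, the median was 0.04 over 13 genes. Fyn had 72.5 CPM (54.8 to 94.2) in WT_LW and 335 CPM (303 to 369) in TLR9agonist_LW (log2 ratio 2.21, 1.80 to 2.64), Lyn 117 and 279 CPM (log2 ratio 1.26, 0.92 to 1.61) and Syk 50.5 and 114 CPM (log2 ratio 1.18, 0.65 to 1.73). The adaptors Gab2 and Vav1 had 8 and 64 UMIs and 21 and 94 UMIs. At 1500 UMIs, Lyn was seen in 16% (10.4 to 23%) and 35% (29.4 to 40.9%) of the members and in 2.8% and 2.35% of T cells. In all other cells the log2 ratios of Fyn, Lyn and Syk were -0.59, -0.62 and -0.99. Socs2, a feedback inhibitor of cytokine receptors, was the lower one, with 377 and 128 CPM (log2 ratio -1.56, -1.85 to -1.27), and Btk, Lat and Inpp5d were within 2-fold.

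**Figure D3:**
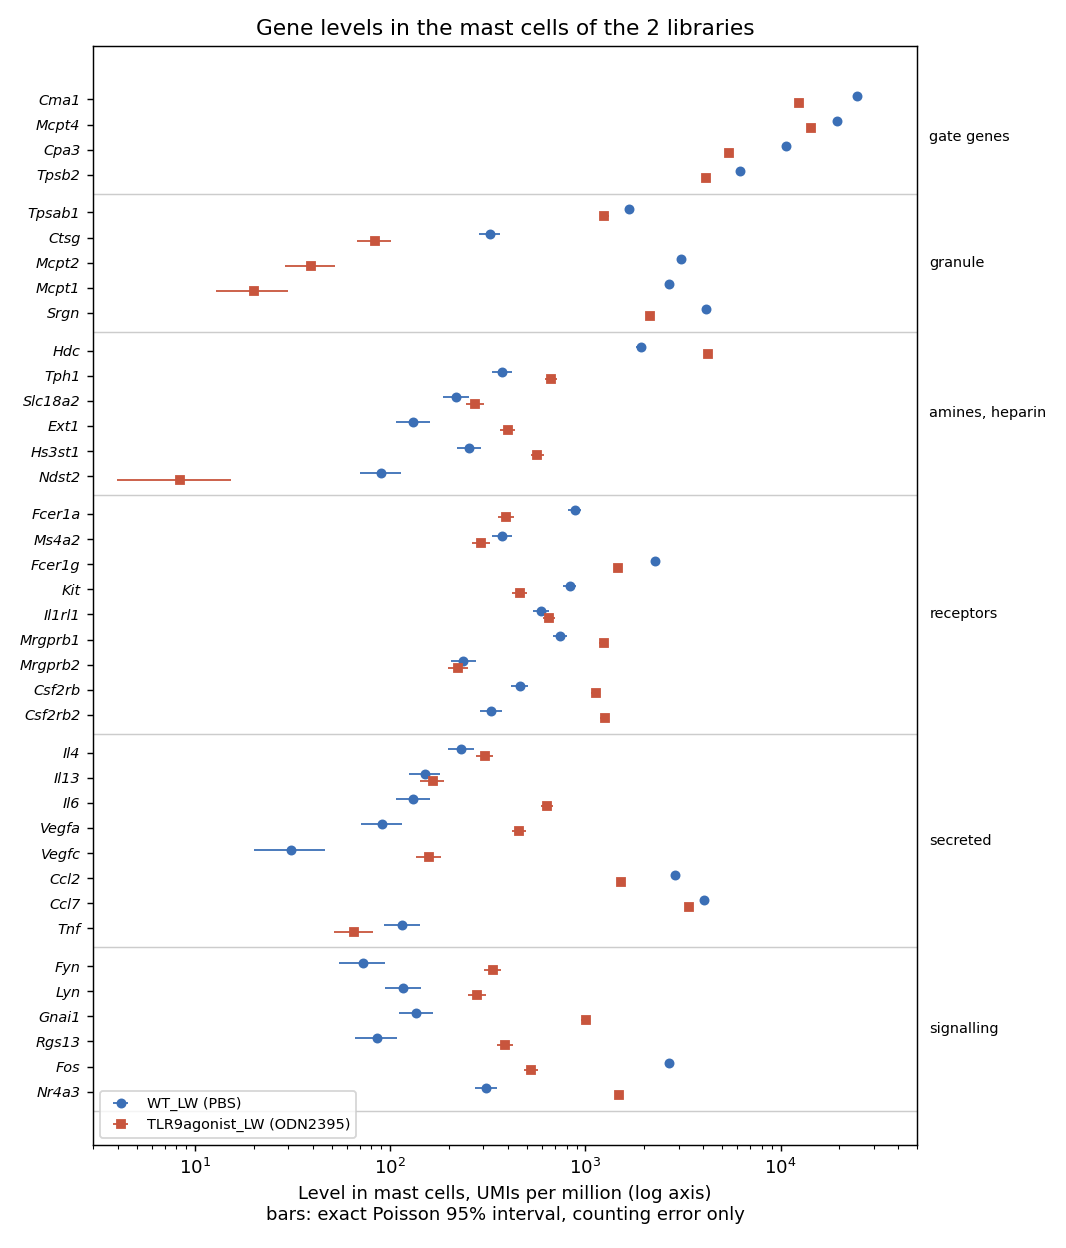
Levels of 38 genes in the mast cells of WT_LW (circles) and TLR9agonist_LW (squares), in CPM on a logarithmic axis, with exact Poisson 95% intervals as bars where they are wider than the symbol. Mcpt1, Mcpt2, Ndst2 and Fos lie furthest to the left in TLR9agonist_LW relative to WT_LW, and Gnai1, Vegfa, Vegfc and Il6 furthest to the right.

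The lineage factors Gata2 and Mitf were at like levels. Gata2 had 549 and 604 CPM (log2 ratio 0.14, -0.04 to 0.31), and Mitf, which drives Kit and granule genes, 122 and 117 CPM (log2 ratio -0.05, -0.44 to 0.34). Of 20 factors with at least 50 UMIs among 28 listed, 3 were higher, namely Ets1 (63.5 and 289.8 CPM), Stat3 (73.8 and 216 CPM) and Id2 (379 and 947 CPM), and 1 was lower, Meis2 (39 and 27 UMIs). The median log2 ratio of the list was 0.27. Without the members that held 20 or more UMIs of other classes, the median was 0.92 over 15 genes. Zeb2 and Cebpb were at 370.4 and 700.2 CPM and at 478 and 898 CPM, under 2-fold. At 1500 UMIs Ets1 was seen in 8.33% and 30.7% of the members, and in 61.1% and 76.3% of T cells, which make it themselves.

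Cytokine genes differed from one to the next. Il4, a type 2 cytokine, had 231 and 305 CPM (log2 ratio 0.40, 0.14 to 0.67) against 1.15 and 1.26 CPM in all other cells, and Il13 150.2 and 165 CPM (log2 ratio 0.13, -0.20 to 0.48) against 2.87 and 1.55. Il5 and Il9 had no UMI in either library. Il6 had 131 CPM (107 to 159) in WT_LW and 637 CPM (593 to 684) in TLR9agonist_LW (log2 ratio 2.28, 1.98 to 2.60), and in all other cells it was at 36.8 and 239 CPM, a log2 ratio of 2.70. At 1500 UMIs Il6 was seen in 12.5% (7.58 to 19%) and 36.4% (30.8 to 42.3%) of the members and in 1.07% and 5% of T cells. Tnf had 115 and 64.9 CPM (log2 ratio -0.83, -1.29 to -0.37) and Osm 196 and 89.9 CPM (log2 ratio -1.12, -1.49 to -0.76). Il1a had 3 and 195 UMIs (log2 ratio 5.38, 3.82 to 7.68), and at 1500 UMIs it was seen in 0 of 144 members of WT_LW, which allows a share of up to 2.08%, and in 12% of those of TLR9agonist_LW, beside 0.192% and 0.344% of T cells.

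Vegfa, Vegfc and Hgf, growth factors of vessels and epithelium, were higher. Vegfa, the main one of blood vessels, had 90.7 CPM (70.7 to 115) in WT_LW and 458 CPM (420.5 to 498) in TLR9agonist_LW (log2 ratio 2.34, 1.98 to 2.72), whereas all other cells stood at 80.2 and 82.7 CPM. At 1500 UMIs Vegfa was seen in 14.6% (9.26 to 21.4%) and 38.9% (33.2 to 44.8%) of the members and in 2.36% and 2.33% of T cells. Vegfc, a factor of lymph vessels, had 31.1 CPM (19.9 to 46.3) in WT_LW and 157 CPM (136 to 181) in TLR9agonist_LW (log2 ratio 2.34, 1.72 to 3.02), and Hgf 2 and 82 UMIs (log2 ratio 4.72, 2.82 to 7.79). Of the 27 listed cytokines and growth factors, 16 had at least 50 UMIs, 9 higher and 1 lower, with a median log2 ratio of 1.43. When members with 20 or more UMIs of other classes were left out, 9 of them kept 50 UMIs, and the median was -0.21. Vegfa was then at a log2 ratio of 2.24 and Il6 at 2.31. Il1b (146 and 614 CPM), Il33 (1 and 173 UMIs; log2 ratio 6.80, 4.30 to 12.11) and Areg (108 and 284 CPM) were among the higher ones, but 80.7% of the Areg and 44.2% of the Il1b UMIs of WT_LW lay in 1 cell, and Il33 had a log2 ratio of 3.08 in all other cells.

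The monocyte chemokines Ccl2 and Ccl7, both abundant in the members, were not higher, while all other cells had more of them in TLR9agonist_LW. Ccl2 had 2893 CPM (2775 to 3016) in WT_LW and 1530.4 CPM (1461 to 1602) in TLR9agonist_LW (log2 ratio -0.92, -1.01 to -0.83), and all other cells 412 and 1626 CPM (log2 ratio 1.98). In TLR9agonist_LW the members thus stood below all other cells for Ccl2, and the part of free RNA in their Ccl2 was not tested. Ccl7 had 4071 and 3391 CPM (log2 ratio -0.26, -0.33 to -0.20), and all other cells 181 and 499.5 CPM. At 1500 UMIs, Ccl2 was seen in 84% and 71% of the members. The share of a library's Ccl2 UMIs that lay in members was 5.36% in WT_LW and 0.863% in TLR9agonist_LW. Ccl1, a ligand of Ccr8, had 17 and 103 UMIs (log2 ratio 1.96, 1.21 to 2.80), and the members held 3.06% and 41.4% of the UMIs of that gene in their library. The neutrophil chemokines Cxcl1 (75.1 and 414 CPM) and Cxcl2 (382 and 2556 CPM) were higher, but stood below the 582 and 1659.8 CPM and 1838 and 3312 CPM of all other cells, and Cxcl2 was seen in 24.3% and 44.9% of the members against 27.8% and 45.7% of T cells, so no expression is read from these shares. A single TLR9agonist_LW member held 391 Cxcl2 UMIs. Of 11 chemokines with at least 50 UMIs, 7 were higher and 1 was lower (median log2 ratio 1.29), and the median was -0.03 over 5 genes without the members that held RNA of other classes.

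Genes of matrix turnover were higher too. Adamts9, a protease of proteoglycans, had 76.4 CPM (58.2 to 98.6) in WT_LW and 315 CPM (284 to 348) in TLR9agonist_LW (log2 ratio 2.04, 1.64 to 2.46), at 35.3 and 34.4 CPM in all other cells, and Adamts5 82.9 and 189 CPM (log2 ratio 1.19, 0.78 to 1.61). Plaur, the urokinase receptor, had 79 and 236 CPM (log2 ratio 1.58, 1.17 to 2.000). Of 12 matrix and repair genes with at least 50 UMIs among 17, 7 were higher and 0 lower (median log2 ratio 1.24), and the median was 1.16 over 6 genes without the members that held RNA of other classes. At 1500 UMIs Adamts9 was seen in 10.4% and 31.1% of the members and in 0.852% and 0.767% of T cells. Lipid mediator genes were mostly close: of 6 with at least 50 UMIs, 1 was higher, Ptgs2 (28 and 182 UMIs), which was seen in 3.47% and 9.54% of the members and 3.9% and 10.7% of T cells. Hpgds, the mast cell prostaglandin D synthase, had 137 and 172 CPM (log2 ratio 0.33, -0.02 to 0.68), and Cyp11a1, a steroid enzyme found in mast cells, 616 and 715 CPM. Of 12 genes of exocytosis, 1 was higher, Rab27b with 341 and 662 CPM (log2 ratio 0.96, 0.76 to 1.17).

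Immediate early genes, which answer stimulation and also tissue handling within minutes, were more often lower than higher in TLR9agonist_LW, with Nr4a3 and Atf3 as the exceptions. Fos had 2691 CPM (2577 to 2809.6) in WT_LW and 527 CPM (487 to 569.8) in TLR9agonist_LW (log2 ratio -2.35, -2.48 to -2.22), Fosb 2114 and 585 CPM (log2 ratio -1.85, -1.98 to -1.72), Jun 3531 and 1181 CPM (log2 ratio -1.58, -1.67 to -1.49), Nr4a1 714 and 244 CPM (log2 ratio -1.55, -1.76 to -1.34) and Klf2 765 and 142 CPM (log2 ratio -2.44, -2.69 to -2.19). Fos was seen at 1500 UMIs in 79.2% (71.6 to 85.5%) and 33.9% (28.4 to 39.8%) of the members. In T cells it was seen in 43.5% and 22.8%, and its log2 ratio in all other cells was -0.77. Nr4a3, a close relative of Nr4a1, had 309.6 CPM (272 to 351) in WT_LW and 1478 CPM (1409.9 to 1548) in TLR9agonist_LW (log2 ratio 2.26, 2.06 to 2.46), and was level in all other cells (log2 ratio 0.01). Of 21 genes with at least 50 UMIs, 2 were higher and 7 lower, and the median log2 ratio was -0.75. Jun, Nr4a1, Klf2 and Klf6 had log2 ratios of -0.04, -0.07, -0.26 and 0.01 in all other cells.

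Heat shock genes were higher, in members and elsewhere alike. Of 13 genes of heat shock and dissociation, 7 were higher and 0 lower (median log2 ratio 1.08). Hspa1b had 468 and 2659 CPM (log2 ratio 2.51, 2.35 to 2.67) in the members and 877 and 2867 CPM (log2 ratio 1.71) in all other cells. At 1500 UMIs it was seen in 33.3% and 67.5% of the members and in 41% and 70.7% of T cells. The part of tissue handling in the immediate early and heat shock values was not tested. Of the 17 genes of the NF-κB pathway and its feedback, 5 were higher, among them Nfkb1 (291 and 843 CPM) and Relb (20 and 79 UMIs), and 2 were lower, Nfkbid (188 and 35.8 CPM) and Tnfaip3 (794 and 368 CPM), with a median log2 ratio of 0.44. Without the members that held 20 or more UMIs of other classes, the median was 0.10 over 8 genes.

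**Figure D4:**
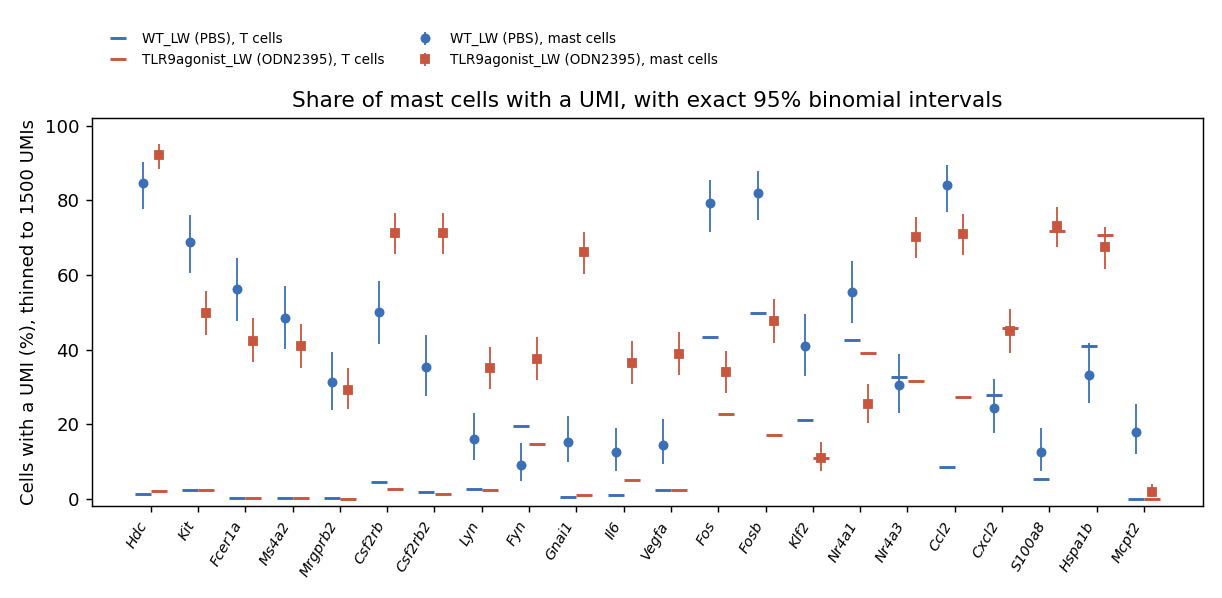
Share of mast cells with at least 1 UMI of 22 genes after thinning each cell to 1500 UMIs, for 144 cells of WT_LW (circles) and 283 of TLR9agonist_LW (squares), with exact binomial 95% intervals. Short dashes give the T cells of the same library. Gnai1 runs from 15.3% to 66.1% with T cells near 0, while S100a8, Cxcl2 and Hspa1b lie at the level of T cells in TLR9agonist_LW.

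Transcripts of Toll-like receptors were near the limit of detection in the members. Tlr9, the receptor of ODN2395, had 2 and 0 UMIs in 772099 and 1201019 UMIs, Tlr2 11 and 11 UMIs and Tlr4 1 and 2 UMIs. A Tlr9 UMI was thus seen in 0 of 446 members of TLR9agonist_LW, which allows a share of up to 0.673% for cells with a captured UMI, not for cells that express the gene. Of the 24 listed receptors and adaptors, 3 had at least 50 UMIs, of which the co-receptor gene Cd14 was higher (29 and 117 UMIs), and no difference in the Toll-like receptors was detectable at this depth. Of 36 interferon response genes, 9 had at least 50 UMIs, 3 were higher and 0 lower (median log2 ratio 0.56). The median was 1.04 over 4 genes without the members that held RNA of other classes and 0.16 after thinning. Isg15 had 268 CPM (233 to 307) in WT_LW and 685 CPM (639 to 734) in TLR9agonist_LW (log2 ratio 1.35, 1.13 to 1.58), Slfn2 24 and 128 UMIs and Rsad2 10 and 46 UMIs, while Irf7, Ifit1 and Ifit3 had 8 and 26 UMIs, 3 and 13 UMIs and 0 and 8 UMIs. Isg15 was seen in 20.8% and 50.5% of the members and in 7.37% and 8.06% of T cells.

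Most genes of the cell cycle were lower in TLR9agonist_LW. Of 15 with at least 50 UMIs, 0 were higher and 10 lower, with a median log2 ratio of -1.29. The median was -0.53 after thinning, -0.69 with equal weight per cell, -0.78 without the members of 10000 UMIs or more and -0.71 without those with 10 or more Mcpt1 and Mcpt2 UMIs. Top2a had 99 and 48 UMIs (log2 ratio -1.68, -2.21 to -1.17) and Mki67 59 and 43 UMIs (log2 ratio -1.09, -1.70 to -0.50), and at 1500 UMIs they were seen in 8.33% and 6.25% of the members of WT_LW and 3.89% and 3.18% of those of TLR9agonist_LW. In T cells the shares were 10.1% and 9.82% in WT_LW and 5.84% and 4.71% in TLR9agonist_LW, and their log2 ratios in all other cells were -0.99 and -1.28. Without the 19 and 1 members that held Mcpt1 and Mcpt2, Top2a was at a log2 ratio of -0.71 and Mki67 at -0.71.

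Beyond the lists, genes were named by the size of their ratio. Among the 185 genes with at least 200 UMIs, at least 10 in each library and at least 2 times the level of all other cells, the 10 with the highest log2 ratios were Car2, Gnai1, Cited4, Vegfc, Il6, Gadd45a, Rgs13, Sla, Gm21190 and Fdx1. Gnai1, an inhibitory G protein subunit, had 136 CPM (111 to 165) in WT_LW and 1003 CPM (947 to 1062) in TLR9agonist_LW (log2 ratio 2.88, 2.59 to 3.19), and was seen at 1500 UMIs in 15.3% (9.83 to 22.2%) and 66.1% (60.2 to 71.6%) of the members and 0.66% and 1.14% of T cells. Car2, carbonic anhydrase 2, had 14 and 287 UMIs (log2 ratio 3.72, 2.95 to 4.61) and Cited4, a transcription cofactor, 32 and 314 UMIs (log2 ratio 2.66, 2.13 to 3.23). Rgs13, a brake on G protein signals that is typical of mast cells, had 85.5 and 388 CPM (log2 ratio 2.18, 1.81 to 2.58), with 0.167 and 0.948 CPM in all other cells. Fdx1, an electron carrier for steroid enzymes, had 496 and 2044 CPM (log2 ratio 2.04, 1.89 to 2.20) and Gadd45a, a stress gene, 194 and 912 CPM (log2 ratio 2.23, 1.98 to 2.49). The 10 lowest were Mcpt1, Mcpt2, Ctsg, Socs2, Mylip, Rgs18, Fcer1a, Osm, Cpa3 and Cma1, from -7.07 to -0.98.

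Without the requirement on other cells, the highest of 1230 genes were mostly genes of keratinocytes and neutrophils. Sprr1b, S100a9, Krt6b, S100a8, Stfa1 and Krt6a had log2 ratios of 4.54, 4.53, 4.47, 4.16, 4.01 and 3.09 in the members. In TLR9agonist_LW these 6 stood at 0.915 to 1.12 times the level of all other cells, and in WT_LW at 0.149 to 0.603 times. Their log2 ratios in all other cells were smaller, at 2.51, 3.45, 1.70, 3.49, 1.99 and 1.32 in the same order. S100a8 was seen in 12.5% and 73.1% of the members and in 5.44% and 71.7% of T cells, and its source in the members was not tested. Car2 and Nlrp3 (19 and 257 UMIs) were the other high genes that stood above all other cells in TLR9agonist_LW by more than 2 times, at 19.5 and 3.45 times.

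**Figure D5:**
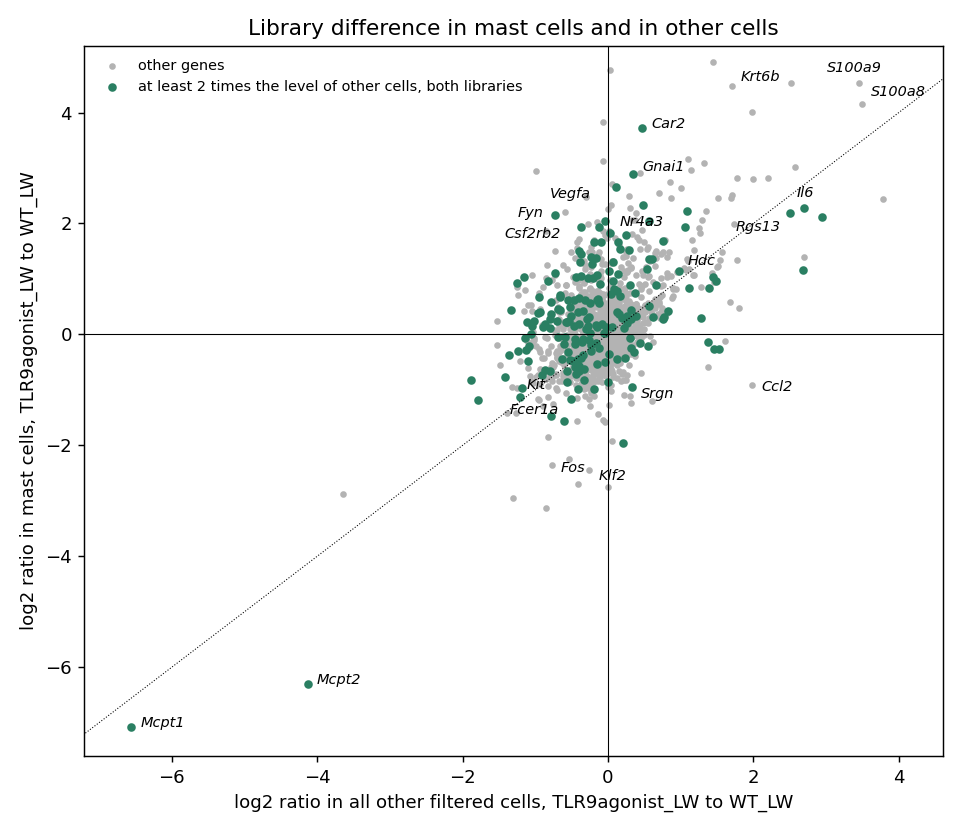
Log2 ratio of TLR9agonist_LW to WT_LW in the mast cells (vertical axis) and in all other filtered cells (horizontal axis), 1 point per gene with at least 200 UMIs in the members. Filled green points are genes at 2 or more times the level of other cells in both libraries, and the dotted line marks equal ratios. Gnai1, Vegfa and Csf2rb2 lie far above the line, Ccl2 far below it, and S100a8 and S100a9 near its upper end.

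Members also differed among themselves. For genes seen in at least 10% of the members, the variance of the UMIs was divided by the one that cell depth alone would give. In WT_LW the first 2 of 3719 genes were Mcpt1 (997) and Mcpt2 (575), followed by the keratinocyte genes Krt79 (283), Krt17 (250.2) and Lgals7 (223). In TLR9agonist_LW the first of 2611 were Fth1 (584), which codes for ferritin heavy chain, Fabp5 (260.2) and Krt10 (215), and S100a9 (155), S100a8 (143) and Cxcl2 (124) followed. The first 15 of both libraries shared 5 genes. Cma1 and Mcpt4 were in both, at 108 and 79.4 in WT_LW and 72 and 96.7 in TLR9agonist_LW, and single members had 1 to 496 and 0 to 344 Cma1 UMIs.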

How the data were processed

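Single-cell 3′ RNA libraries of 1 PBS-treated and 1 ODN2395-treated wound sample were analysed. The authors deposited UMI counts per gene and cell from Cell Ranger (version 4.0.0 in the matrix header), and the submitters' processing notes also name fastp and Seurat. Their notes name build mm9, while 27645 of 27998 gene identifiers were found in GENCODE vM21, so gene coordinates were taken from RefSeq only. From the deposited counts, the UMIs of the members were summed per library (Python 3.11.15, scipy 1.17.1), with exact Poisson intervals for levels, exact binomial intervals for ratios and Clopper-Pearson intervals for shares. Genes with at least 50 UMIs were counted as higher or lower from 2-fold relative to the median gene. Named genes were those of the lists and the 10 highest and 10 lowest with at least 200 UMIs and at least 10 in each library. 1 listed gene is counted but not reported by name here. Cells were thinned at random to 1500 UMIs for shares. Doublets were marked with Scrublet in scanpy 1.11.5 (25 and 41 members) and kept. The members and lists were chosen with earlier results of these data known. With 99374045 and 132339022 UMIs in 12800 and 13751 deposited cells, 47 cell barcodes occurred in both libraries.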

Additional observations from a re-analysis of the deposited data

How the results depend on the processing

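The mast cell share was higher in TLR9agonist_LW in each of 10 alternatives, and the log2 ratio of 0.94 went down to 0.37 when members with 20 or more UMIs of other classes were left out. The numbers of genes at least 2-fold higher and lower, 489 and 270, were 215 and 143 without those members, 227 and 100 in cells thinned to 1500 UMIs, 846 and 643 over genes with at least 20 UMIs and 167 and 62 over genes with at least 200; fewer or more genes were tested in each of these. The median log2 ratio over genes, -0.06, was -0.0875 and -0.0246 at gates of 5 and 20 protease UMIs, 0.0795 without members holding RNA of other classes, 0.00163 without those of 10000 UMIs or more, -0.10 with the gate genes out of the totals, 0.12 after thinning, -0.14 and 0.11 at minimums of 20 and 200 UMIs, and 0 by construction after centring. Without the members holding RNA of other classes, the median of the cytokine and growth factor list was -0.21 and that of the chemokine list -0.031, opposite in sign to the medians given above, with fewer genes counted. The T and NK marker list went to -0.29 at a minimum of 20 UMIs. Of 82 named genes at least 2-fold apart, 82 kept their sign in the settings tried and 63 stayed past 2-fold in each; the others were Ccr1, Cd14, Cd86, Ctsl, Fcer1a, Gusb, Hdc, Hs3st1, Il1rn, Itgav, Lgals3, Mcpt8, Mki67, Osm, Rab27b, Selplg, Spp1, Tnfaip3 and Top2a, with Hdc between 1.02 and 1.30. The alternatives without deep members and without members holding Mcpt1 and Mcpt2 were chosen after seeing the data. No paired analysis was possible because each group had 1 library.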

Other observations

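Lgals3, Il1rn and Cd86 were higher in TLR9agonist_LW. Of 14 genes of checkpoint, class II and co-stimulation with at least 50 UMIs, 5 were higher and 1 was lower (median log2 ratio 0.15). Lgals3, which codes for galectin-3, had 854 and 2055 CPM (log2 ratio 1.27, 1.14 to 1.39) and was level in all other cells (log2 ratio -0.08). Il1rn, the IL-1 receptor antagonist, had 23 and 142 UMIs (log2 ratio 1.99, 1.35 to 2.69), and Cd86, a ligand of Cd28, 12 and 47 UMIs (log2 ratio 1.33, 0.40 to 2.38). Cd69, an activation marker of lymphocytes, was the lower one, with 88 and 40 UMIs and a log2 ratio of -1.77 in the members and -1.24 in all other cells. Of 16 genes of adhesion and migration, a share close to that over all genes passed 2-fold, with 2 higher, the integrin chain Itgav (36 and 151 UMIs) and the chemokine receptor Ccr1 (9 and 41 UMIs), and 1 lower, the selectin ligand Selplg (75 and 46 UMIs). Of 15 lysosome genes, 1 was higher (Ctsl, 36 and 113 UMIs) and 2 were lower (Gusb, 46 and 30 UMIs, and Gnptab, 42 and 17 UMIs).

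Mast cells held a large part of some transcripts of the whole library although they were 1.77% and 3.38% of its cells. Of all Il4 UMIs in filtered cells, 61.8% lay in members in WT_LW and 69.2% in TLR9agonist_LW. For Il13 the shares were 29.7% and 49.6%, for Hdc 53.7% and 59.97%, and for Tph1 79.1% and 74.9%. For Csf2rb2 they were 6.49% and 25%, for Gnai1 4.55% and 24%, and for Vegfa 0.905% and 4.88%. Such shares depend on how many cells of each class were captured as well as on the level per cell.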
